A study of Mus musculus with 2 samples.

Results

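The genes described here were 10 transcription factors of the adipogenic programme, taken by name from 19169 genes in the deposited table: the CCAAT/enhancer-binding proteins Cebpa, Cebpb, Cebpd and Cebpg, the C/EBP-homologous factor Ddit3 (CHOP), the peroxisome proliferator-activated receptors Pparg, Ppara and Ppard, their dimer partner Rxra, and the zinc finger factor Zfp423. C/EBP proteins bind DNA as dimers through a basic leucine zipper. In the textbook order of fat cell differentiation, Cebpb and Cebpd come early and are followed by Pparg and Cebpa, which drive the fat cell genes and each other. Ddit3 and Cebpg form dimers with other C/EBP proteins, Ddit3 is a gene of the stress response that can hold back C/EBP action, and Zfp423 marks preadipocytes. PPARs bind DNA only together with an RXR, and fibro-adipogenic progenitors (FAPs), the Pdgfra+ stromal cells of muscle, are the cells from which fat between muscle fibres arises. All 10 genes were in the table and had UMIs in both libraries.

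The study addressed the role of the pore-forming protein GSDME in muscle repair. Single cells were made from the gastrocnemius of mice whose muscle had been injured with cardiotoxin (CTX), a snake venom toxin that kills muscle fibres and leaves the progenitors able to rebuild them. Both groups were injured, and both were taken 14 days later. One library came from wild-type mice (WT) and the other from mice lacking Gsdme in every cell (GSDME-KO), so that no single cell type carried the deletion alone, and the study's methods give 5 mice per genotype. The ages of the mice and how those animals were divided over the libraries were not given in the sources used here. With 1 library per genotype there is no replicate check, no test across conditions was possible, and genotype, animal and library cannot be told apart. The intervals below are exact 95% intervals for counting error only, and differences are described by their size.

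The WT-labelled library held 6354 cells and 44758518 UMIs (unique molecular identifiers, 1 per captured RNA molecule), and the KO-labelled library 7078 cells and 50930009 UMIs, with medians of 5740 and 5962.5 UMIs per cell. The libraries shared 4 cell barcodes. Gsdme itself gave 225 UMIs under the WT label and 237 under the KO label, or 5.03 and 4.65 UMIs per 1000000 (CPM). It was thus not lower in the KO-labelled library, and whether the counted reads lie in the deleted part was not given in the sources used here, so every direction below rests on the labels. Some genes set the libraries apart in every cell type: the gene model Tpm3-rs7 gave 12219 UMIs in the WT-labelled and 302 in the KO-labelled library, while its near-identical partner Tpm3 gave 9932 and 31732, and reads can be split between such copies. Part of a list of 22 heat-shock and immediate-early genes, which can be induced while tissue is digested, was also higher in the KO-labelled library, with counts that differed between cell types and are given beside the members.

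Cells were clustered without using the 10 genes or the gene lists below, and clusters were named from marker genes. There were 3780 FAP-like cells (1654 in the WT-labelled and 2126 in the KO-labelled library), 796 tendon-like, 3255 endothelial-like, 367 pericyte-like, 1823 macrophage-like, 241 dendritic-like, 167 T-cell-like, 497 muscle stem cell (MuSC)-like and 354 Schwann-like cells. Clusters that carried markers of several types or too few markers were left unnamed, and held 8.28% and 5.30% of WT-labelled cells and 7.59% and 5.69% of KO-labelled cells. The pericyte-like cluster was led by Acta2, Myh11 and Tagln, which are genes of smooth muscle. A larger cluster of 688 cells, led by Rgs5, was also best matched by the pericyte markers but was set aside for its several marker sets. The summed level of 6 FAP markers was 60019 CPM (UMIs of a gene per 1000000 UMIs of the same cells) in FAP-like cells of the WT-labelled library and 60969 in the KO-labelled, against 770 and 925.2 in macrophage-like cells. No cluster carried the fat cell markers. In FAP-like cells Adipoq and Cidec were listed at 0 in both libraries and Plin1 gave 0 and 1 UMI.

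In the mm10 annotation (GENCODE), Cebpa lies at chr7:35119293-35121928 and Cebpg at chr7:35046422-35056573 on the opposite strand. Cebpb, a gene of 1 exon, lies at chr2:167688915-167690418 inside Tmem189 of the other strand, and Cebpd at chr16:15887286-15891031 overlaps Spidr of the other strand. Ddit3 lies at chr10:127290774-127296288 and overlaps Mars and Gm4189 of the other strand. Pparg lies at chr6:115360951-115490399, Ppara at chr15:85734983-85802819, Ppard at chr17:28232700-28301474, Rxra at chr2:27676440-27762957 and Zfp423 at chr8:87661810-87959595. All 10 are protein-coding, and whether the counting used strand was not given in the sources used here.

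The 250 bases before the RefSeq start (GRCm38.p6, + strand, 5′ to 3′) are shown for the regulators whose FAP levels differed by over 1.5-fold between the libraries with an interval clear of 0, and for the start of Pparg that lies furthest downstream. Capitals mark matches to 6 motifs searched on both strands: CCAAT, the core of the cyclic AMP response element TGACG, the C/EBP core TTGCNNAA, the C/EBP-ATF composite TGATGNAA, the STAT core TTCNNNGAA and the TATA box TATAAA. The windows are chr7:35119043-35119292 for Cebpa, chr2:167688665-167688914 for Cebpb, chr10:127290543-127290792 for Ddit3 and chr6:115421816-115422065 for Pparg.
Cebpa: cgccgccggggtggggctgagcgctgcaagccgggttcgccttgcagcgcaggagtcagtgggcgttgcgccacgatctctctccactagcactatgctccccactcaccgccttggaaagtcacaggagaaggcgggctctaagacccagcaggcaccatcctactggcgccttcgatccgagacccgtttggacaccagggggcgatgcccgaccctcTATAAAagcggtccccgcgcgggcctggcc
Cebpb: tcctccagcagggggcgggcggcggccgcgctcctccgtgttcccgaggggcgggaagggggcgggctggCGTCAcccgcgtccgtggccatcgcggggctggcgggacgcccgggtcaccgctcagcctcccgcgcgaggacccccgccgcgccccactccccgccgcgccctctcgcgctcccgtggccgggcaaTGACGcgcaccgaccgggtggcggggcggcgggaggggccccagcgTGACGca
Ddit3: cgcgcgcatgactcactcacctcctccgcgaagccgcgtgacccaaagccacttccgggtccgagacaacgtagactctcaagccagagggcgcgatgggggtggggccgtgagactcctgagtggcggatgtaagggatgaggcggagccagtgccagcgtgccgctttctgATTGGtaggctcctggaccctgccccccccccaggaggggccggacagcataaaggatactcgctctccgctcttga
Pparg: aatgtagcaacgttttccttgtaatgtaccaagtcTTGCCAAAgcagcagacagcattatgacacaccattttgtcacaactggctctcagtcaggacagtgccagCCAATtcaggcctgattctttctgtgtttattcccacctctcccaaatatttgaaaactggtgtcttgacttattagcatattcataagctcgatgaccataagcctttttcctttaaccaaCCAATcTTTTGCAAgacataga

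The Cebpa window held 1 TATA box, 30 bases before the start, and none of the other motifs. The Cebpb window held 3 TGACG cores, at 180, 53 and 7 bases before the start, and no CCAAT. The Ddit3 window held 1 CCAAT, read on the other strand, 77 bases before the start. The downstream Pparg window held 2 CCAAT and 2 C/EBP cores, at 144 and 22 and at 215 and 16 bases before the start. Of 32851 mouse promoters of the same length, 33.8% held CCAAT, 17.8% TGACG, 9.56% the C/EBP core, 3.45% the composite, 7.02% the STAT core and 12.4% the TATA box. The 9 genes other than Cebpd matched an entry of the promoter table.

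Cebpb was the member whose level differed most widely between the libraries. It gave 32879 UMIs in the WT-labelled and 13240 in the KO-labelled library, or 734.6 and 260 CPM over all cells. In FAP-like cells its level was 834.1 CPM (818.2 to 850.2) in the WT-labelled and 282.6 CPM (274.8 to 290.4) in the KO-labelled library, a log2 ratio of -1.56 (-1.61 to -1.51). The share of FAP-like cells with a Cebpb UMI was 87.7% and 70.6%, and after each cell was thinned to 1000 UMIs it was 48.0% and 23.8%. In FAP-like cells 8.34% of 12824 genes with at least 20 UMIs were at least 1.5-fold lower in the KO-labelled library and 5.22% at least 1.5-fold higher. Of the 10 members, 4 were lower by that size (Cebpa, Cebpb, Pparg and Ppara) and 2 higher (Cebpd and Ddit3), with intervals that left out 0 for Cebpa, Cebpb, Cebpd and Ddit3. With 10 CPM added to each level before the ratio, 1 member was lower and 2 higher by that size.

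**Figure D1:**
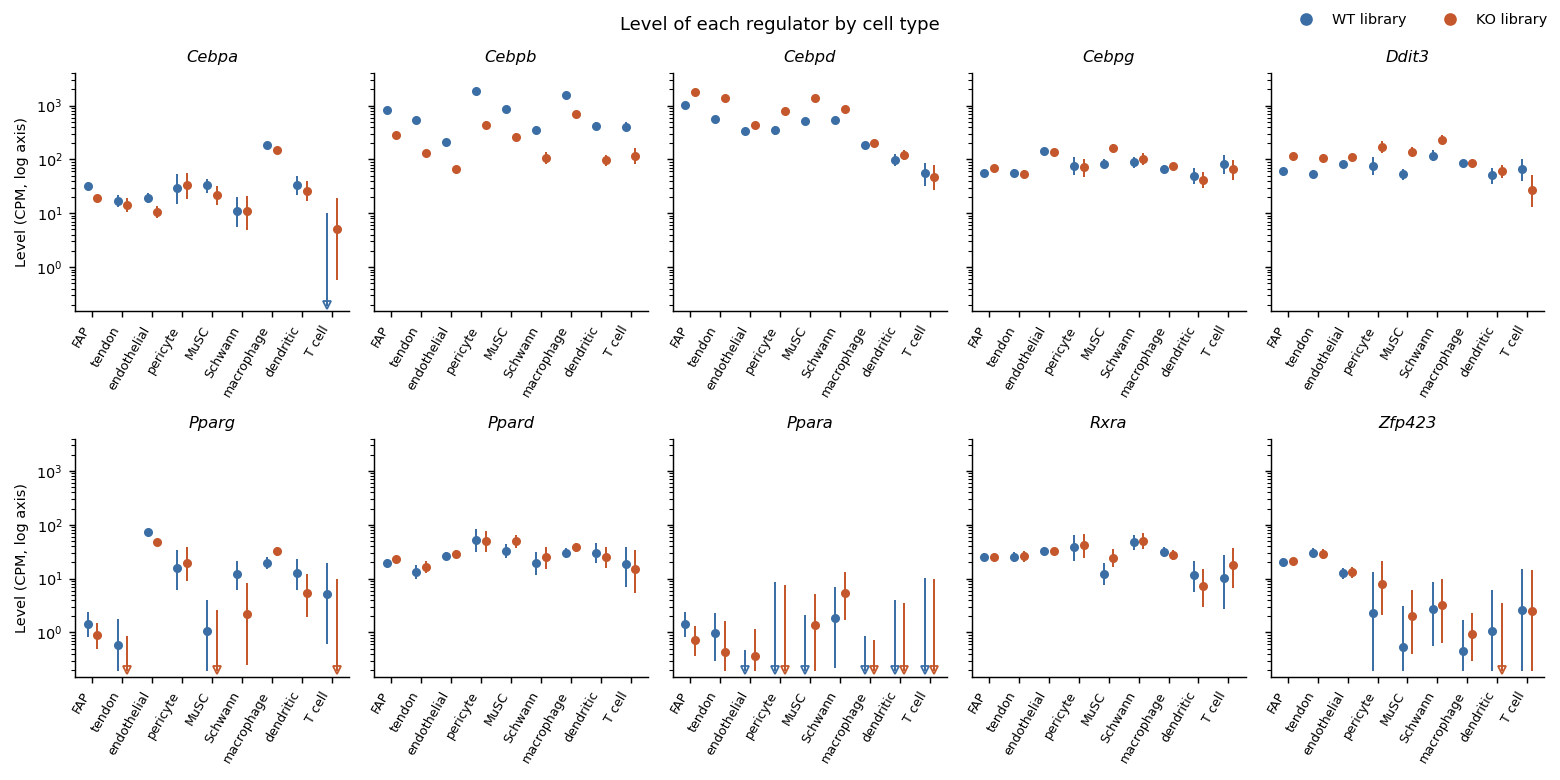
Level of each of the 10 genes (CPM, log axis, with exact 95% Poisson intervals, and arrows for libraries with 0 UMIs) in the 9 named cell types, by library. Cebpb is lower in the KO-labelled library in every type, Cebpd is highest in FAP-like cells, Pparg is highest in endothelial-like cells, and Zfp423 is highest in tendon-like and FAP-like cells.

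Every other cell type held less Cebpb in the KO-labelled library too. The level was 1863 and 442 CPM in pericyte-like cells, 1586 and 692 CPM in macrophage-like cells, 877.6 and 266 CPM in MuSC-like cells and 532.3 and 133.1 CPM in tendon-like cells. The log2 ratio ran from -1.20 (-1.25 to -1.14) in macrophage-like cells to -2.15 (-2.47 to -1.84) in dendritic-like cells, and every interval left out 0. The dendritic value was -1.45 and -1.47 under other clusterings. The order of types differed between the libraries. In the WT-labelled library pericyte-like cells were highest, then macrophage-like cells, then MuSC-like and FAP-like cells whose intervals overlapped, while in the KO-labelled library macrophage-like cells were above pericyte-like cells. Endothelial-like cells were lowest in both, at 207.9 and 65.9 CPM. Among the endothelial clusters the lymphatic-like one led by Ccl21a stood at 1011 and 260.3 CPM and the one led by Timp4 at 86.2 and 22.4 CPM. A cluster of neutrophil-like cells, too small for the comparison at 24 and 32 cells, held the highest level of any named type, 3394 and 1494 CPM.

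Of 4063 genes with at least 20 UMIs in each of the 9 types, 11 were at least 1.5-fold lower in the KO-labelled library in all 9, and Cebpb was one of them. The others were Tpm3-rs7, Ppp2cb, Isg15, Lars2, Larp1b, Csnk2a2, Ppp1r14b, Brd1, Hnrnpa0 and Rab21. A difference of this reach in 1 library against 1 moves with every library-wide feature, and the part of such features in the Cebpb values was not tested. T-cell-like cells held Cebpb at 408 and 115.3 CPM. Their UMIs of Cebpd per UMI of Cebpb were 0.135 and 0.413, against 1.22 and 6.25 in FAP-like cells, and the part of free RNA in these values was not tested.

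Cebpd went in the other direction in the stromal and muscle lineages. In FAP-like cells it stood at 1020 CPM (1003 to 1038) in the WT-labelled and 1766 CPM (1747 to 1786) in the KO-labelled library, a log2 ratio of 0.79 (0.76 to 0.82), and FAP-like cells had the highest level of all types in both libraries. MuSC-like cells held 516.5 and 1372 CPM (log2 ratio 1.41, 1.30 to 1.52), tendon-like cells 571.4 and 1376 CPM (1.27, 1.2 to 1.33), and pericyte-like cells 346.8 and 787.3 CPM (1.18, 0.91 to 1.46). The pericyte ratio was 0.31 once the cluster of several marker sets led by Rgs5 was counted with them, in which Cebpd stood at 442.6 and 515.6 CPM. Schwann-like cells held 550.5 and 849.5 CPM (0.63, 0.47 to 0.78). Their cluster led by Col20a1 had 736.9 CPM in the WT-labelled and 1234 CPM in the KO-labelled library. In macrophage-like cells Cebpd was 189.4 and 203.5 CPM, and the interval of the log2 ratio, -0.03 to 0.24, left room for a small difference in either direction. Endothelial-like cells held 344.2 and 430 CPM, within 1.5-fold (0.32, 0.25 to 0.39). The share of T-cell-like cells with a Cebpd UMI, 9.88% and 14% at a median of 4204 and 3923.5 UMIs, served as the background for a gene that these cells should lack, and the share of FAP-like cells was 88.2% and 93.0% at 7435 and 8244.5 UMIs.

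**Figure D2:**
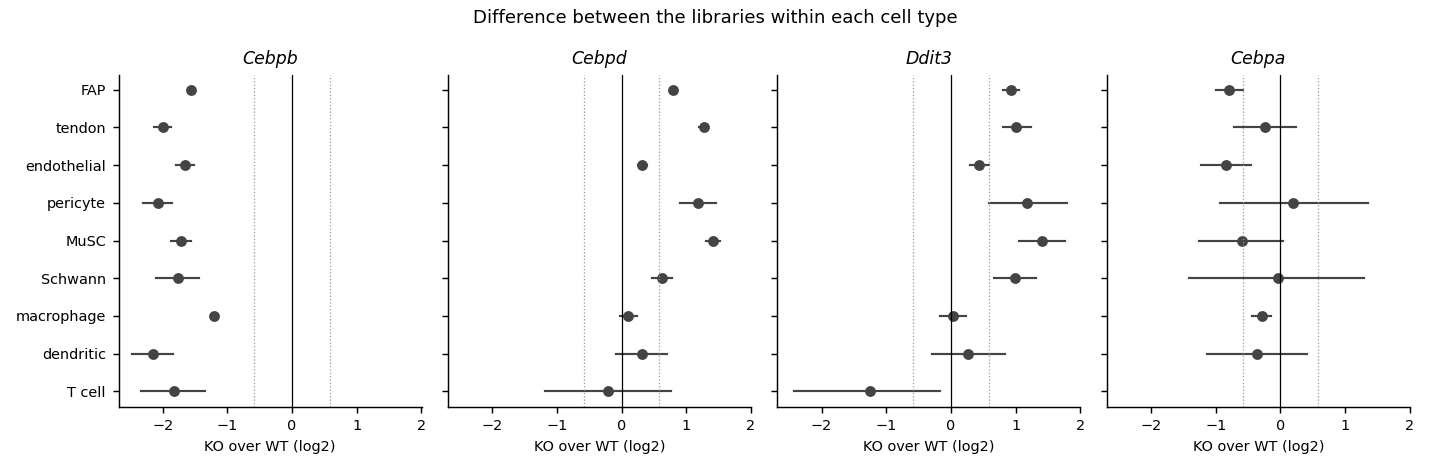
Log2 ratio of the KO-labelled over the WT-labelled library for Cebpb, Cebpd, Ddit3 and Cebpa in the 9 named cell types (Cebpa is left out in T-cell-like cells, with 2 UMIs), with exact 95% intervals for counting error as bars and the 1.5-fold limits as dotted lines. All Cebpb points lie between -2.15 and -1.20, and the Cebpd and Ddit3 points lie above 1.5-fold in 5 types each.

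Cebpa, the late C/EBP of fat cells and a factor of the myeloid lineage, was highest in macrophage-like cells, at 184.2 CPM (171.7 to 197.3) in the WT-labelled and 150.2 CPM (140 to 161) in the KO-labelled library, a log2 ratio of -0.29 (-0.44 to -0.15). No other neighbours in the order of types were separate in either library. FAP-like cells held 32.6 CPM (29.5 to 35.9) and 18.9 CPM (16.9 to 21.0), from 408 and 338 UMIs, and the log2 ratio was -0.79 (-1.0 to -0.58). A Cebpa UMI was seen in 19.7% and 13.0% of FAP-like cells, and in 3.17% and 1.80% after thinning to 1000 UMIs. The background was low, since 0 of 81 and 2 of 86 T-cell-like cells had one, and 0 of 81 allows a share of up to 4.45% (exact binomial). Endothelial-like cells held 19.3 and 10.8 CPM (-0.84, -1.23 to -0.45). MuSC-like cells held 32.8 and 21.7 CPM, with an interval of -1.26 to 0.04, and the log2 ratio of -0.60 was -0.16 once clusters of several marker sets were counted in. Tendon-like cells, at 16.9 and 14.3 CPM, differed by less than counting error.

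Cebpg, a short C/EBP that lacks an activation domain, was spread over all types. In the WT-labelled library endothelial-like cells were highest, at 143.7 CPM, and the other types, from 49.3 to 88.8 CPM, overlapped with their neighbours. The level in endothelial-like cells of the KO-labelled library was 138.4 CPM. MuSC-like cells were the only type of the 9 with a difference over 1.5-fold, 83.9 and 165.6 CPM from 156 and 244 UMIs (log2 ratio 0.98, 0.68 to 1.28). FAP-like cells held 56.6 and 69.1 CPM (0.29, 0.15 to 0.42).

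Ddit3, the stress-induced family member, was at least 1.5-fold higher in the KO-labelled library in the same 5 types as Cebpd. FAP-like cells held 60.2 CPM (55.9 to 64.6) and 114.3 CPM (109.4 to 119.3), a log2 ratio of 0.93 (0.80 to 1.05). MuSC-like cells held 52.7 and 139.8 CPM (1.41, 1.05 to 1.77), pericyte-like cells 77.1 and 173.6 CPM (1.17, 0.59 to 1.79), tendon-like cells 53.9 and 108.6 CPM (1.01, 0.80 to 1.23) and Schwann-like cells 118.4 and 234.8 CPM (0.99, 0.67 to 1.31). The Schwann call was lost on thinning each cell to 1000 UMIs, where the log2 ratio was 0.22 and the share of cells with a UMI 14.2% in both libraries. Schwann-like cells were highest in the WT-labelled library, and overlapped with pericyte-like and MuSC-like cells in the other. Macrophage-like cells held 85.4 and 87.2 CPM (0.03, -0.17 to 0.23). T-cell-like cells held 65.4 and 27.6 CPM from 25 and 11 UMIs, the one type with a lower level (-1.25, -2.42 to -0.17).

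The members' calls per type have to be read against how many genes differ by as much between the libraries. In tendon-like cells 2 of 8 members with enough UMIs were higher and 1 lower, against 10.4% and 5.64% of all genes. In endothelial-like cells 0 of 9 were higher and 2 lower, Cebpa and Cebpb, against 6.06% and 5.5%. In macrophage-like cells 1 of 8 was higher and 1 lower, Pparg and Cebpb, against 6.25% and 9.85%. In pericyte-like cells 2 of 7 were higher and 1 lower, against 13.1% and 13.1%. In dendritic-like cells 0 of 6 were higher and 1 lower, Cebpb, against 14.2% and 11.4%. In T-cell-like cells 0 of 4 were higher and 2 lower, Cebpb and Ddit3, against 12.8% and 17.5%. In Schwann-like cells 2 of 7 were higher and 1 lower, against 10.9% and 8.83%. MuSC-like cells had the most, with 5 of 7 higher (Cebpd, Cebpg, Ddit3, Ppard and Rxra) and 2 lower (Cebpa and Cebpb), against 16.1% and 11.9%. The median log2 ratio of all genes lay between -0.06 and 0.06 in the 9 types.

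Within the stroma the direction of Cebpb and Cebpd held in every FAP subset. Subsets were the Pi16/Dpp4 cells (764), Hsd11b1/Mme cells (361), Sfrp4/Gdf10 cells (743), Cyp2f2/Myoc cells (544), Tnmd cells (776, mostly tendon-like), and sub-clusters led by Ifit1 (972) and Hspa1a (416), an interferon-response and a heat-shock gene. Cebpb stood at 769.9 and 316.3 CPM in the Pi16/Dpp4 subset, at 706.1 and 274.4 CPM in the Hsd11b1/Mme subset, at 1025 and 306.1 CPM in the Sfrp4/Gdf10 subset, at 950.3 and 283.7 CPM in the Cyp2f2/Myoc subset and at 544.7 and 139.1 CPM in the Tnmd subset. The log2 ratios ran from -1.28 (-1.39 to -1.18) in the Pi16/Dpp4 subset to -1.97 (-2.10 to -1.84) in the Tnmd subset. The WT-labelled Sfrp4/Gdf10 and Cyp2f2/Myoc cells were above the other subsets, and in the KO-labelled library the Tnmd cells and the Hspa1a-led cells (173.9 CPM) were below them.

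Cebpd was highest in the Hsd11b1/Mme subset in both libraries, at 1468 CPM (1397 to 1541) and 3132 CPM (3039 to 3227). The log2 ratio in this subset was 1.09 (1.01 to 1.18). With subsets assigned by marker scores it was 0.75, below the ratios of the other named subsets, so its size rests on the clustering. The enzyme that names this subset, Hsd11b1, makes active glucocorticoid from its inert form. The Pi16/Dpp4 subset held 900.7 and 1473 CPM (0.71), the Sfrp4/Gdf10 subset 904.6 and 1368 CPM (0.60), the Cyp2f2/Myoc subset 782 and 1543 CPM (0.98) and the Tnmd subset 570 and 1342 CPM (1.24). The widest difference was in the Hspa1a-led sub-cluster, 942.8 and 2839 CPM (1.59, 1.5 to 1.68), and the narrowest in the Ifit1-led one, 1232 and 1592 CPM (0.37, 0.31 to 0.43). Of the subset markers, those of Hsd11b1/Mme also matched the Ifit1-led cells best, but none was among the leading genes there. Ddit3 also differed most in the Hspa1a-led cells, at 67.3 and 221.3 CPM (1.72), but its order was otherwise another. It stood at 102.6 and 198.7 CPM in the Hsd11b1/Mme subset (0.95), at 47.9 and 117.5 CPM in the Pi16/Dpp4 subset (1.30), at 53.6 and 71.7 CPM in the Sfrp4/Gdf10 subset (0.42) at 62.7 and 80.4 CPM in the Cyp2f2/Myoc subset (0.36), at 54.1 and 107.3 CPM in the Tnmd subset (0.99) and at 56.7 and 91.9 CPM in the Ifit1-led cells (0.70). The Sfrp4/Gdf10 value rests on the clustering, since it was 1.08 with subsets assigned by marker scores. The part of heat-shock genes in these values was not tested. Without the Ifit1-led and Hspa1a-led cells the FAP log2 ratio of Ddit3 was 0.78.

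Cebpa was lower in the KO-labelled library in each FAP subset by its point value. The interval left out 0 in the Pi16/Dpp4 subset (21.1 and 9.64 CPM, log2 ratio -1.13, -1.77 to -0.51), the Cyp2f2/Myoc subset (37.5 and 24.1 CPM, -0.64, -1.19 to -0.10, and -0.48 by marker scores) and the Ifit1-led cells (41.5 and 17.9 CPM, -1.21, -1.64 to -0.80). In the Hsd11b1/Mme subset it was 41.8 and 29.8 CPM from 46 and 41 UMIs, with an interval of -1.13 to 0.15, and in the Sfrp4/Gdf10 subset 29.7 and 22.5 CPM (-0.84 to 0.04). At these counts neither interval left out 0. By marker scores the log2 ratio in the Hsd11b1/Mme subset was -0.85 instead of -0.48, past 1.5-fold but inside that interval. In the Sfrp4/Gdf10 subset it was -0.36 instead of -0.40. Cebpg was higher in the Pi16/Dpp4 (0.50, 0.21 to 0.79) and Cyp2f2/Myoc (0.60, 0.20 to 0.99) subsets, the latter 0.37 by marker scores.

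**Figure D3:**
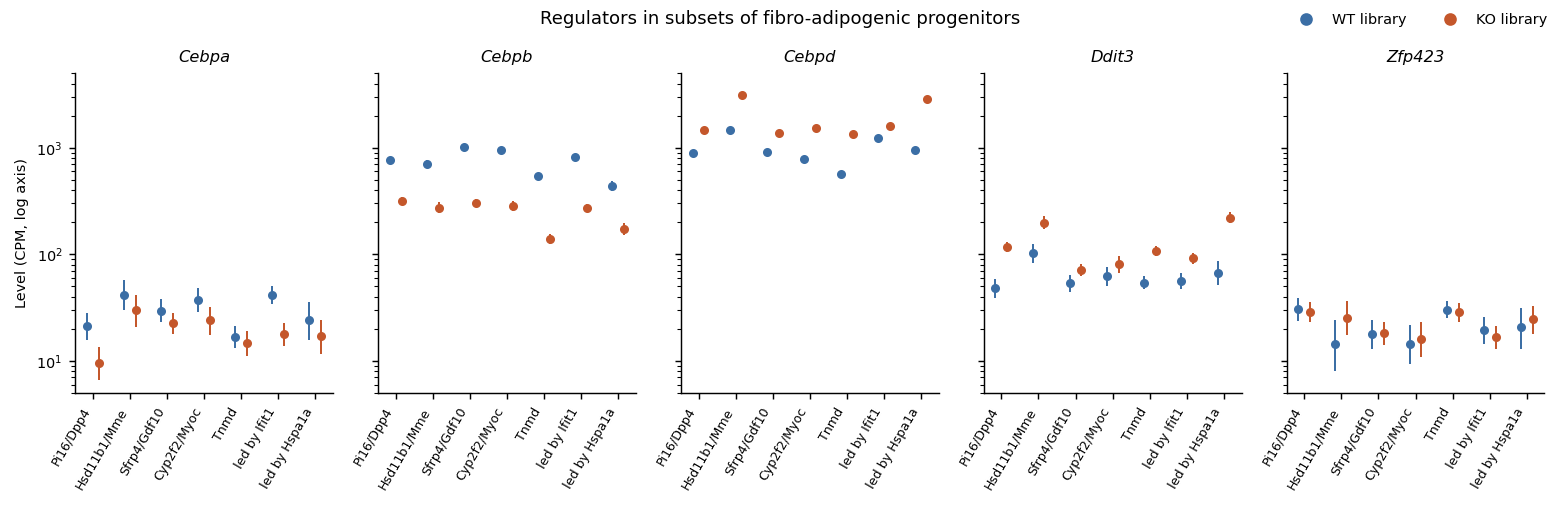
Levels (CPM, with exact 95% Poisson intervals) on a log axis of Cebpa, Cebpb, Cebpd, Ddit3 and Zfp423 by FAP subset and library. Cebpb is lower and Cebpd higher in the KO-labelled library in all 7 subsets, and Cebpd reaches 3132 CPM in Hsd11b1/Mme cells.

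Pparg, the receptor that drives fat cell formation, was close to undetected in FAPs. FAP-like cells held 18 UMIs in the WT-labelled and 16 in the KO-labelled library, or 1.44 CPM (0.851 to 2.27) and 0.893 CPM (0.511 to 1.45), and the interval of the log2 ratio, -1.75 to 0.37, was too wide to give a direction. The share of FAP-like cells with a UMI was 1.03% and 0.659%. T-cell-like cells gave 2 of 81 (2.47%, 0.30% to 8.64%) and 0 of 86, which allows up to 4.2%, too few cells to set a background. In tendon-like cells 3 of 419 and 0 of 377 had a UMI, and in MuSC-like cells 2 of 249 and 0 of 248. Whether the UMIs in FAP-like cells were free RNA was not tested. No FAP subset held more than 8 UMIs in either library, and the Hspa1a-led cells held 0 in both.

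Among the 9 compared types Pparg was highest in endothelial-like cells, which held 594 of 1143 and 388 of 931 of its UMIs. Their level was 72.0 CPM (66.4 to 78.1) and 48.1 CPM (43.4 to 53.1). The log2 ratio was -0.58 (-0.77 to -0.40), just within 1.5-fold, and the share of cells with a UMI was 25.4% and 17.6%, or 7.46% and 4.05% after thinning. Among endothelial clusters the one led by Rbp7 held 81.2 CPM (72.1 to 91.1) and 49.6 CPM (43.0 to 56.8), and the one led by Timp4 69.7 CPM (61.2 to 79.0) and 57.6 CPM (48.8 to 67.4), whose intervals overlapped. The lymphatic-like cluster led by Ccl21a held 44.1 and 10.8 CPM from 29 and 7 UMIs. A cluster led by Hbb-bs, a red cell gene, with medians of 847 and 924 UMIs per cell, held 59.9 and 35.4 CPM.

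Of the 9 types macrophage-like cells had the next highest point value, and the ratio had the other sign. They held 19.3 CPM (15.4 to 23.9) and 31.9 CPM (27.3 to 37.0) from 85 and 171 UMIs, a log2 ratio of 0.72 (0.34 to 1.12), which was 0.57 without integration over libraries, and 8.52% and 14.1% of the cells had a UMI, or 1.49% and 2.76% after thinning. The Ccl3/Ms4a7-led macrophages held 24.9 and 36.9 CPM, and the Folr2-led ones 3.48 CPM (0.949 to 8.92) and 14.8 CPM (8.76 to 23.4) from 4 and 18 UMIs. The interval of the endothelial ratio and that of the macrophage ratio did not overlap, with no replicate behind either.

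**Figure D4:**
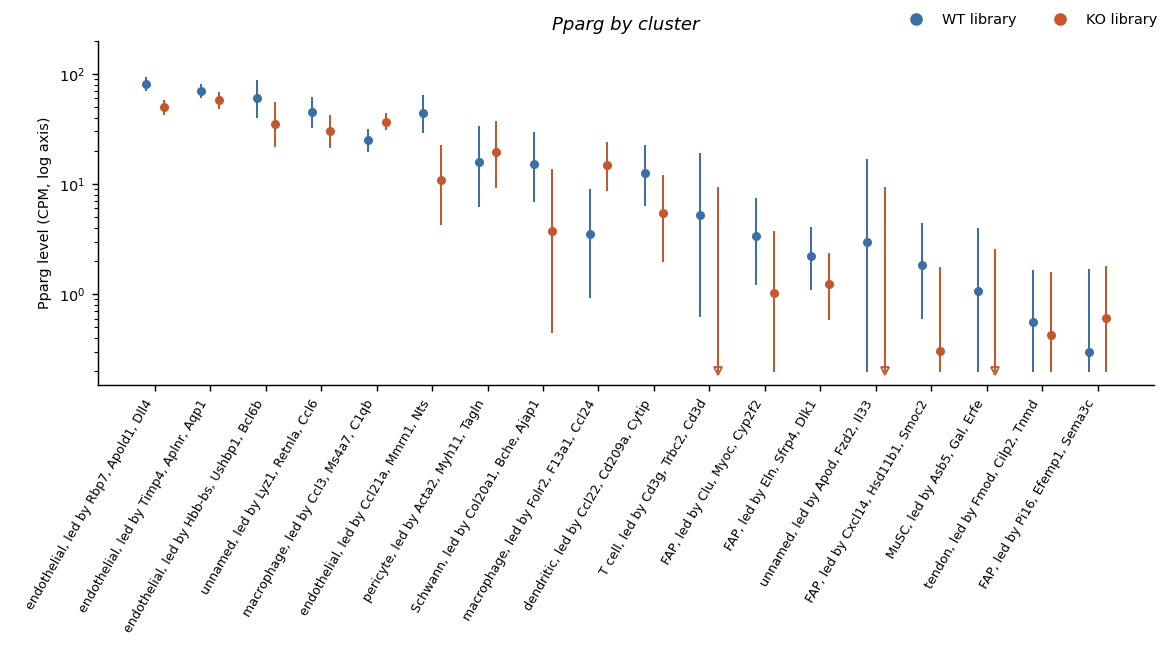
Pparg level (CPM, log axis, with exact 95% Poisson intervals) by library in the clusters of at least 100 cells over both libraries, clusters of several marker sets and 1 other cluster left out. Arrows mark libraries with 0 UMIs, drawn up to the upper limit. Endothelial clusters lie between 10.8 and 81.2 CPM, Ccl3/Ms4a7-led macrophages at 24.9 and 36.9 CPM, and FAP clusters at no more than 3.35 CPM.

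Ppard, the widely expressed receptor, was present in every type. FAP-like cells held 19.2 and 23.3 CPM from 241 and 417 UMIs (log2 ratio 0.28, 0.04 to 0.51). The difference over 1.5-fold was in MuSC-like cells, 32.3 CPM (24.6 to 41.6) and 49.5 CPM (38.8 to 62.3), with a log2 ratio of 0.62 (0.11 to 1.14), and this call was lost under 3 alternatives, at 0.53 as a mean over cells, 0.36 after thinning and 0.51 with clusters of several marker sets counted in. Among FAP subsets it was 13.2 and 23.2 CPM in Pi16/Dpp4 cells (0.81, 0.23 to 1.42) and 15 and 25.6 CPM in Sfrp4/Gdf10 cells (0.77, 0.23 to 1.32), which became 0.48 and 0.57 by marker scores, and 31.4 and 24.8 CPM in Ifit1-led cells (-0.75 to 0.07). Ppara, the receptor of liver and oxidative muscle, gave 29 and 27 UMIs in all cells, 18 and 13 of them in FAP-like cells, and 0 in macrophage-like cells, where a count of 0 allows at most 0.838 and 0.688 CPM. No pair of neighbouring types was separate for Ppara.

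Rxra, the partner of all 3 PPARs, differed little. FAP-like cells held 25.6 and 24.7 CPM (log2 ratio -0.05, -0.26 to 0.16), endothelial-like cells 32.4 and 32.0 CPM and macrophage-like cells 30.9 and 27.6 CPM. Schwann-like cells were highest at 48.1 and 50.9 CPM, but their intervals overlapped with those of pericyte-like cells. MuSC-like cells held 12.4 and 24.4 CPM from 23 and 36 UMIs (0.98, 0.19 to 1.80), and this ratio was 0.18 once clusters of several marker sets were counted in. The interval in FAP-like cells left out a difference of 1.5-fold in either direction.

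Zfp423 was found mainly in tendon-like, FAP-like and endothelial-like cells. It was highest in tendon-like cells, at 30.3 CPM (25.8 to 35.4) and 28.9 CPM (24.1 to 34.2), then in FAP-like cells at 20.4 CPM (17.9 to 23.0) and 21.1 CPM (19.0 to 23.3), then in endothelial-like cells at 12.6 and 13.3 CPM, and each step lay beyond counting error in both libraries. Macrophage-like cells held 2 and 5 UMIs, with 0.243% and 0.5% of cells, against 13.4% and 15.6% of FAP-like cells. Within the stroma it was highest in Pi16/Dpp4 cells, at 30.5 and 28.9 CPM, and Tnmd cells, at 30.3 and 28.7 CPM. The Hsd11b1/Mme subset held 14.5 and 25.5 CPM from 16 and 35 UMIs, and the interval of -0.08 to 1.76 did not leave out 0 (log2 ratio 0.81, and 0.36 by marker scores). The FAP ratio was 0.05 (-0.18 to 0.29), which leaves out a difference of 1.5-fold.

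Cells with UMIs of both Pparg and Cebpa, the pair that drives fat cell genes, numbered 171 of 6354 (2.69%) in the WT-labelled and 162 of 7078 (2.29%) in the KO-labelled library, with overlapping intervals. Only 4 of 1654 and 1 of 2126 FAP-like cells were among them. Macrophage-like cells held 46 (5.6%) and 76 (7.59%), and endothelial-like cells 57 (3.5%) and 31 (1.91%), in the direction of Pparg in each type. Of all cells with both, 1 and 2 also had a UMI of the fat cell genes Adipoq, Plin1 or Cidec, which were seen in 10 and 15 cells in all. Counts of co-detection grow with depth and were not thinned.

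Gene lists around the family were read in FAP-like cells, where 5.22% of all genes were higher and 8.34% lower by 1.5-fold and the median log2 ratio was -0.06. Of 15 partners and coregulators with enough UMIs, 2 were higher, Rxrg and Ppargc1b, at 13 and 30 and at 16 and 39 UMIs (chosen for mention after their values were seen), and 0 lower, with a median of 0.00. Among the better-counted ones furthest from 0, within 1.5-fold, were the receptors Rxrb (18.9 and 16.5 CPM) and Nr1h2 (34.6 and 42.6 CPM) and the coactivator Ncoa1 (73.4 and 63.5 CPM). Of 21 other factors that promote or hold back adipogenesis, 1 was higher and 2 lower, with a median of -0.01. Klf2, which holds back Pparg, was higher (382.7 and 588.4 CPM, log2 ratio 0.62), and Klf5, which acts beside Cebpb and Cebpd to induce Pparg, was lower (43.9 and 25.3 CPM, -0.80), as was Klf15 at 46 and 29 UMIs. Dlk1, the preadipocyte factor that holds back differentiation, stood at 76.4 and 102.8 CPM (0.43), and Zfp467 at 8.38 and 6.25 CPM (-0.42).

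The fat cell targets of Pparg and Cebpa had a median below that of all genes. Of 14 with enough UMIs, 4 were lower and 0 higher, with a median of -0.38 and a range of -0.91 to 0.07. The lower ones were Cd36, Dgat2, Fasn and Aqp7 (17 and 13 UMIs, -0.90, -2.07 to 0.23), and 0 passed with 10 CPM added to each level before the ratio. The fatty acid carrier Cd36 stood at 9.34 and 4.97 CPM (log2 ratio -0.91, -1.32 to -0.50), the triglyceride-forming enzyme Dgat2 at 7.5 and 4.52 CPM (-0.73, -1.18 to -0.29) and the fatty acid synthase gene Fasn at 54.7 and 33.6 CPM (-0.71, -0.87 to -0.55), while the lipid synthesis enzyme Agpat2, within 1.5-fold, stood at 8.86 and 6.08 CPM (-0.54, -0.94 to -0.15). Lpl, the most abundant of them, stood at 757.6 and 686.4 CPM (-0.14). Cd36 was highest in endothelial-like cells, and Aqp7 was a leading gene of an endothelial cluster. The summed level of the endothelial markers in FAP-like cells was 36.8 CPM in the WT-labelled and 23.4 CPM in the KO-labelled library. The part of free endothelial RNA in the Cd36 and Aqp7 values was not tested. Of 19 targets of Ppara and Ppard in fatty acid oxidation, 2 were higher and 0 lower, with a median of 0.06. These were Angptl4 (21.9 and 33.4 CPM, 0.61) and Cpt2 (4.23 and 6.47 CPM, 0.61), while the interval of Acot1 (-0.44) held 0.

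Inflammatory and acute-phase targets of Cebpb and Cebpd were also read in FAP-like cells, where Cebpd was higher and Cebpb lower in the KO-labelled library. Of 14 targets with enough UMIs, 10 were higher and 0 lower, with a median of 0.79. Whether Cebpd or Cebpb had a part in this was not tested. The cytokine Il6 stood at 190.1 and 619.4 CPM (log2 ratio 1.70, 1.64 to 1.77), the pentraxin Ptx3 at 319.7 and 866.2 CPM (1.44), the chemokine Ccl2 at 354.1 and 674.5 CPM (0.93) and the feedback inhibitor Socs3 at 576.5 and 902.3 CPM (0.65). In the same cells 9 of 22 immediate-early and heat-shock genes were higher and 0 lower, with a median of 0.32 and a summed level of 18430 and 26403 CPM. The heat-shock genes Hspa1a (380.3 and 1397 CPM), Hspa1b (480.6 and 1872 CPM), Dnajb1 (390 and 1283 CPM) and Hsph1 (261.9 and 666.9 CPM) were furthest from 0. The summed level of 4 red cell genes also differed, at 68.5 and 583.2 CPM. The part of either in the members' values was not tested.

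Other stress response genes passed 1.5-fold only towards lower levels in FAP-like cells, where 8.34% of all genes were lower and 5.22% higher. Of 20 genes of the integrated stress and unfolded protein responses, 6 were lower by 1.5-fold, 2 of them with 10 CPM added, and 0 higher, with a median of -0.26. Ddit4 stood at 19.9 and 6.64 CPM (log2 ratio -1.58, -1.91 to -1.26), the serine synthesis gene Psat1 at 12.2 and 5.64 CPM (-1.11), the cystine carrier Slc7a11 at 21.0 and 12.4 CPM (-0.76) and the chaperone cofactor Dnajb9 at 285 and 184.4 CPM (-0.63). Atf4, the factor that induces Ddit3 in this response, stood at 763.2 and 626.7 CPM (-0.28). Within 1.5-fold, Atf3 stood at 934.1 and 1245 CPM (0.41) and Xbp1 at 161 and 193.2 CPM (0.26). In MuSC-like cells, where the Ddit3 ratio was widest, 5 of 18 were higher and 2 lower, with a median of 0.02 and a summed level of 5021 and 7782 CPM, and in pericyte-like cells 2 of 11 were higher and 1 lower (-0.28). Endothelial-like cells had 0 higher and 4 lower of 19 (-0.26), and macrophage-like cells 0 higher and 3 lower of 15 (-0.19). Of all genes 16.1% were higher and 11.9% lower in MuSC-like cells, and 13.1% and 13.1% in pericyte-like cells. The shares were 6.06% and 5.5% in endothelial-like cells and 6.25% and 9.85% in macrophage-like cells. The lower count in MuSC-like cells and both pericyte counts were near these shares.

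**Figure D5:**
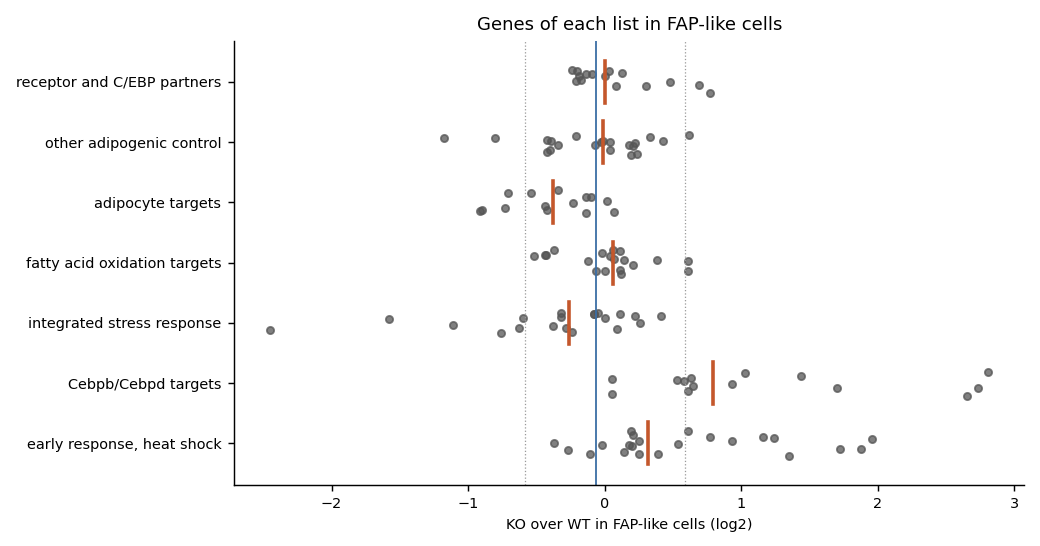
Log2 ratio of the KO-labelled over the WT-labelled library in FAP-like cells for each gene of the 7 lists with at least 20 UMIs, with the median of each list as an orange bar, that of all genes as a blue line and the 1.5-fold limits as dotted lines. The Cebpb and Cebpd targets have a median of 0.79, the fat cell targets of -0.38 and the stress response genes of -0.26.

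The other lists are given by cell type without a test between types. The Cebpb and Cebpd targets had 6 of 9 higher in pericyte-like cells (median 1.06) and 5 of 11 higher and 1 lower in MuSC-like cells (0.55). They had 3 of 12 higher in endothelial-like cells (0.30) and 4 of 11 higher and 1 lower in macrophage-like cells (0.32). Of all genes 13.1% were higher in pericyte-like, 16.1% in MuSC-like, 6.06% in endothelial-like and 6.25% in macrophage-like cells. The single lower calls were near the shares of all genes, 11.9% in MuSC-like and 9.85% in macrophage-like cells. The same shares apply to the immediate-early and heat-shock genes below. Il6 in endothelial-like cells stood at 28.5 and 118.3 CPM (log2 ratio 2.05), and in pericyte-like cells at 704.9 and 773.5 CPM (0.13). In MuSC-like cells, where Cebpd and Ddit3 differed most, 16 of 22 immediate-early and heat-shock genes were also higher, with a median of 0.89, and in macrophage-like cells, where both members were within 1.5-fold, 6 were higher and 2 lower with a median of 0.06. In endothelial-like cells, where both members were also within 1.5-fold, 4 were higher and 0 lower with a median of 0.30, near the 0.32 of FAP-like cells. Pericyte-like cells, where both members were over 1.5-fold higher, had 11 of 22 higher and 1 lower with a median of 0.61, against 13.1% of all genes in each direction. The fat cell targets were lower in 1 of 13 in macrophage-like cells (median -0.23), 1 of 16 in endothelial-like cells (-0.06) and 2 of 12 in MuSC-like cells, where 3 were higher (0.18), shares near those of all genes (9.85%, 5.5%, 11.9% and 16.1%). Cd36 was highest in endothelial-like cells, at 1726 and 2085 CPM.

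The genes whose levels over the 9 cell types were most like each member's are given as a description, since the 9 points share 2 libraries and differ in depth. For Pparg they were Cyren (Pearson r = 0.978), Sgms1 (0.977), Cd36 (0.960), Psme2b (0.957) and the endothelial surface gene Cd93 (0.955). For Cebpa they were Sh2b2 (0.95), Kdm6b (0.926), Tbc1d5 (0.923), Spryd7 (0.916) and the myeloid gene Lst1 (0.911). For Cebpb they were Nt5c2 (0.889), Tmem135 (0.859), Ccl2 (0.854), Umad1 (0.852) and Epb41l1 (0.848). For Cebpd they were Saal1 (0.992), Fndc3b (0.983), Creld1 (0.973), Prkci (0.973) and Ift74 (0.972). For Zfp423 they were Mn1 (0.974), Ism1 (0.943), Pigt (0.937), Cped1 (0.935) and Meox1 (0.922). For Ddit3 they began with Gab1 (0.973) and Kif3a (0.971), for Cebpg with Kat2a (0.952) and Tlk2 (0.951), for Rxra with Tstd2 (0.976) and Fance (0.969), and for Ppard with Gm43848 (0.941) and Pgam2 (0.924).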

How the data were processed

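The deposited table held 1 value per gene and cell, deposited by the authors on a natural log scale, which the values show to be that of 1 plus UMIs per 10000. Cell suffixes 1 and 2 were mapped to the KO-labelled and WT-labelled samples by the series' labels. The labels name Cell Ranger 2.1.1 and mm10, whereas the study's methods name a later Cell Ranger, removal of cells rich in mitochondrial reads, doublet removal and Harmony integration. Whole UMI counts were recovered from the log values (29528482 values, largest distance from a whole number 0.256) and summed per cell type and library. Levels are UMIs per 1000000 of each sum (CPM), with exact Poisson intervals, ratios have exact conditional binomial intervals, and shares exact binomial ones, all at 95% and for counting error only. A gene with at least 20 UMIs over both libraries was called at 1.5-fold. The 1.5-fold call was also run on simulated FAP-like counts of well-counted genes. It called 199 of 200 genes changed 2-fold and 2 of 8597 unchanged ones. The simulated counts held counting error only, so they do not cover sparse genes, small cell types or differences between animals.

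Cells were integrated over libraries and clustered by the Louvain method on 2000 variable genes without the members or lists (igraph 0.11.9, resolution 0.8, 30 components, 20 neighbours). The rules that left mixed and weakly marked clusters unnamed were set after the clusters were seen. Types with under 50 cells in a library were not compared. Scrublet (scanpy 1.11.5) marked 101 (1.59%) and 109 (1.54%) cells, kept here and left out in an alternative. The members and lists were chosen with earlier results of these data known. From each list the 4 genes furthest from 0 among those with at least 100 UMIs in FAP-like cells were named, except for a few items that are not reported here, and for each member up to 5 genes by Pearson correlation of log2(CPM + 10) over the 9 types among genes with at least 500 UMIs. Alternatives were another averaging, centring, thinning, depth and doublet filters, other clusterings, count minimums and 10 CPM added before the ratio.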

Additional observations from a re-analysis of the deposited data

Results flagged for a closer look

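The difference between the libraries in Pparg went in opposite directions in 2 cell types. The log2 ratio of the KO-labelled over the WT-labelled library was -0.58 in endothelial-like cells and 0.72 in macrophage-like cells. The ratio of Ddit3 was -1.25 in T-cell-like cells and 1.41 in MuSC-like cells. With 1 library per genotype, neither difference between cell types was tested.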

How the results depend on the processing

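No ratio called at 1.5-fold changed direction under any alternative that was run. In FAP-like cells 107 of 120 member ratios moved by less than counting error, in the other types 571 of 611, and of the subset ratios 35 of 40. Thinning to 1000 UMIs moved the most, with 4 of 10 FAP ratios and 33 of 55 in the other types staying within counting error. Of the list and whole-table counts, 109 of 180 stayed equal or within 1.5-fold. Among the FAP log2 ratios, a mean over cells of UMIs per 10000 gave Cebpb -1.34, Cebpd 0.75 and Ddit3 0.78, and centring at the median of all genes gave Cebpb -1.50 and Cebpd 0.85. Thinning every cell to 1000 UMIs gave Cebpb -1.31, Cebpg 0.44, Ppara -2.95, Ppard -0.18, Rxra 0.38 and Ddit3 0.76, from few UMIs for the rarer genes. Leaving out the Hspa1a-led and Ifit1-led sub-clusters, an alternative chosen after seeing the data, gave Ppard 0.58 and Ddit3 0.78. Subsets assigned by marker scores gave Cebpd ratios of 0.79 (Pi16/Dpp4), 0.75 (Hsd11b1/Mme), 0.91 (Sfrp4/Gdf10) and 0.88 (Cyp2f2/Myoc). A minimum of 100 UMIs, which tests fewer genes, and 10 CPM added to each level before the ratio, which shrinks the ratios of low genes, gave 0 and 0 partners higher, 1 and 1 control factors lower, 6 and 6 Cebpb and Cebpd targets higher, and 283 and 100 genes of the whole table higher and 509 and 117 lower. The numbers of genes tested under these settings are not given here, so these counts cannot be read as shares. With 10 CPM added, 0 fat cell targets were lower, 0 fatty acid oxidation targets higher and 2 stress response genes lower. The cause was not tested otherwise. No paired analysis was possible because each genotype had 1 library. The depth of single cells limits Pparg, Ppara and Zfp423 outside their main types, where a count of 0 does not show that a gene was absent.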

Other observations

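Outside the named types, a cluster led by Il5, Gata3 and Il13, which are genes of type 2 lymphoid cells, held Pparg at 118.3 CPM (56.7 to 217.6) in the WT-labelled and 64.7 CPM (32.3 to 115.8) in the KO-labelled library, from 10 and 11 UMIs in 19 and 33 cells. The point values were above those of the endothelial-like cells, and the intervals were wide. Cebpa gave 0 UMIs in both libraries in these cells, and Cebpb stood at 911.2 and 129.4 CPM. A cluster led by Lyz1, Retnla and Ccl6, with 110 and 140 cells, held Pparg at 45.1 and 30.4 CPM, Cebpa at 49.1 and 46.5 CPM and Cebpb at 1414 and 555.9 CPM. A low-depth cluster led by Apod, Fzd2 and Il33, with medians of 810 and 939 UMIs, held Cebpd at 1065 and 1915 CPM and Pparg at 1 and 0 UMIs. In neutrophil-like cells Pparg stood at 50.5 and 90.3 CPM from 6 and 13 UMIs.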
